A study of Mus musculus with 8 samples.

Results

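The Src family consists of tyrosine kinases held at the inner face of the plasma membrane, and 8 genes of this family and its partners were examined here: Src, Lyn, Fgr, Fyn and Yes1, which are Src-family kinases, Syk and Btk, which act below them, and Csk, which restrains them. They were found by gene symbol in the table of 55801 genes, each in 1 row, and all 8 passed the minimum mean level of 1 TPM, Yes1 with a mean of 1.22 TPM and only through the samples with C498, since all others were under 1 TPM. The cells were peritoneal macrophages of male C57BL/6 mice aged 6 to 8 weeks, which were drawn into the abdominal cavity with thioglycollate broth and flushed out 72 h later. RNA was sequenced from 4 groups of 2 samples: vehicle (DMSO, called NC), LPS at 100 ng/ml for 4 h, C498 at 15 µM, and C498 at 15 µM for 0.5 h with LPS at 100 ng/ml then added for 4 h (C498+LPS). LPS comes from the outer membrane of Gram-negative bacteria and C498 is a small molecule for which the study asked whether it dampens the response to LPS. How long the group with C498 alone was treated, and whether the 2 samples of a group came from separate mice, is not given in the sources used here, so p-values measure the spread between these samples, which may be technical.

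In resting cells a Src-family kinase is folded shut, because Csk phosphorylates a tyrosine in its tail, and phosphatases such as the product of Ptprc open it again. Active Src-family kinases phosphorylate the ITAM motifs of receptors and adaptors such as Tyrobp and Fcer1g, on which Syk docks, and Syk and the Tec-family kinase Btk then drive phospholipase C gamma and the Card9, Bcl10 and Malt1 complex. In macrophages Fgr and Lyn are among the classical members of the family, and they also act through ITIM receptors, which recruit the phosphatase encoded by Ptpn6 and lower the signal. RNA levels say nothing of the phosphorylation of these proteins.

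TPM divides reads by gene length and scales each sample to a common sum, which leaves the read number behind a value unknown, and levels of different genes can be set side by side. Changes are differences of log2(TPM + 1) with their standard error (SE), from limma fitted over all 8 samples and the 12189 genes with a mean of at least 1 TPM, with Benjamini-Hochberg adjustment over those genes. A gene passed the test at an adjusted p of at most 0.05, and a DEG was also changed at least 2-fold on that scale. Adding 1 draws the changes of low genes, such as Yes1, towards 0. The macrophage markers Cd68, Lyz2, Adgre1 and Csf1r were present in all samples, and the summed level of 8 macrophage markers lay between 20016 and 20564 TPM in NC, 17867 and 18410 in LPS, 15919 and 16064 in C498, and 12388 and 14182 in C498+LPS. Of these 8 markers, 2 passed as higher and 3 as lower in C498+LPS vs LPS, against 9.08% and 7.7% of all tested genes. In C498 vs NC 1 passed as higher and 1 as lower, against 9.29% and 6.19%. The summed level of 5 fibroblast markers lay between 150 and 200 TPM in NC and LPS and between 618 and 911 TPM in the samples with C498. In bulk RNA, fewer cells of a type and less RNA per cell cannot be told apart, and the part of these shifts in the results below was not tested. The second C498+LPS sample also held 118.9 TPM over 5 B cell markers, against 17.8 to 54.2 TPM in the other 7 samples.

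Per gene length, Syk was the highest of the 8 transcripts in every group and Yes1 the lowest. In NC the order was Syk, Csk, Lyn, Fgr, Btk, Src, Fyn and Yes1, where the replicates of Fgr and Btk overlapped and those of all other neighbours did not. In LPS it was Syk, Src, Lyn, Csk, Btk, Fgr, Fyn and Yes1 with no overlap between neighbours, so that Src stood 2nd in place of 6th. With C498 alone the order was Syk, Csk, Lyn, Src, Btk, Fgr, Fyn and Yes1, with Csk and Lyn overlapping. In C498+LPS it was Syk, Src, Lyn, Csk, Btk, Fyn, Fgr and Yes1, where Src overlapped Lyn and Btk overlapped Fyn.

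**Figure D1:**
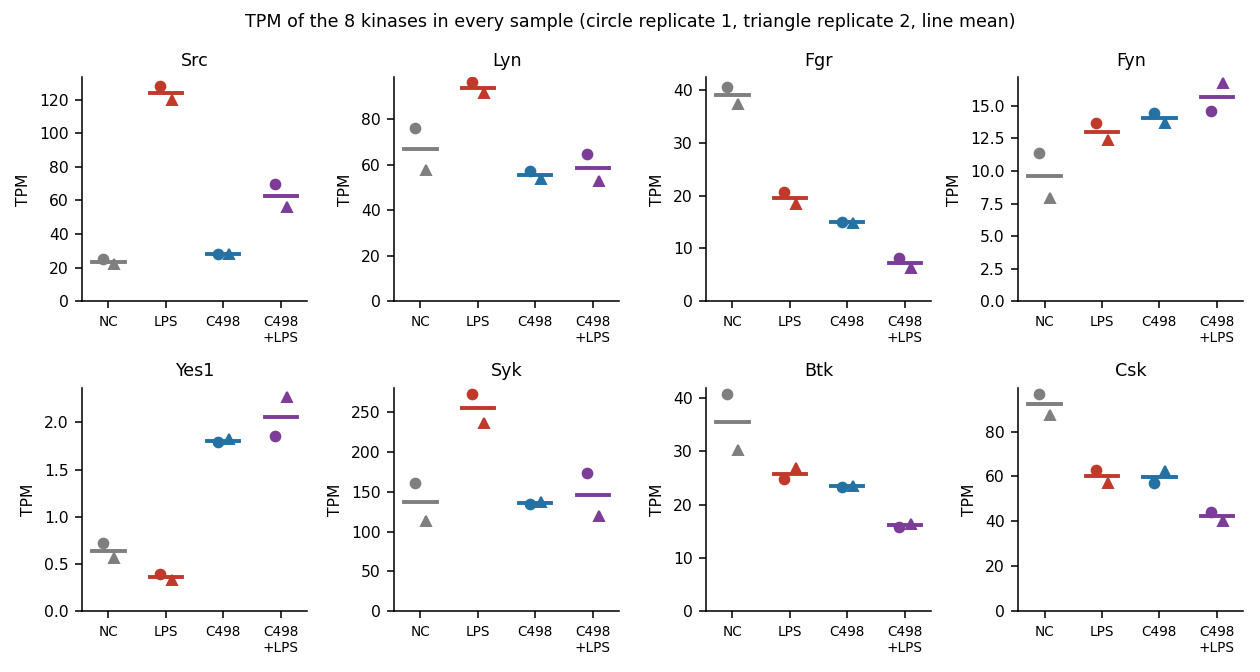
TPM of the 8 genes in each of the 8 samples (circles replicate 1, triangles replicate 2, lines the group mean of 2 samples, axes from 0). Src rises from about 24 to 124 TPM with LPS and reaches 62.8 TPM in C498+LPS, Fgr falls from 39.1 TPM in NC to 7.21 TPM in C498+LPS, and Yes1 stays under 3 TPM throughout.

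Src, the founding member of the family, was the member with the largest response to LPS. It was at 24.9 and 22.4 TPM in the NC samples, 127.9 and 119.9 TPM in LPS, 28.0 and 28.0 TPM in C498, and 69.7 and 55.9 TPM in C498+LPS. Both LPS samples lay above all others, both C498+LPS samples lay between them and the unstimulated ones, and no groups overlapped. LPS vs NC gave a 5.24-fold higher mean, which is 2.34 on the log2 scale (SE 0.13, limma adjusted p = 4e-05), and C498+LPS vs C498 a 2.24-fold higher mean, or 1.13 (SE 0.13, limma adjusted p = 0.00219). Src was 1.97-fold lower in C498+LPS vs LPS, with a log2 change of -0.98 (limma adjusted p = 0.00349), which is just short of the 2-fold threshold. C498 alone gave a log2 change of 0.24 with a 95% interval from -0.07 to 0.54 and did not pass the test (limma adjusted p = 0.251).

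The difference between both LPS responses of Src, tested as the interaction of C498 and LPS, was -1.22 on the log2 scale (SE 0.18, unadjusted p = 0.000261 from limma). Its adjusted p of 0.0505 missed the threshold and ranged from 0.0233 to 0.28 over the alternatives tried, 4 of which passed. Leaving out any sample kept the 3 calls of Src.

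Src (ENSMUSG00000027646) lies on chromosome 2 of GRCm38 from 157418444 to 157471862 on the plus strand in GENCODE M21. Fgr (ENSMUSG00000028874) lies on chromosome 4 from 132974095 to 133001910 and Yes1 (ENSMUSG00000014932) on chromosome 5 from 32611171 to 32687057, both on the plus strand. The promoter windows of these 3 genes are shown because they are the members that were DEGs in any comparison, each with a different pattern. A window runs from 250 bases before to 50 bases after the transcription start of RefSeq (GRCm38.p6), 5′ to 3′. Capitals mark matches on either strand to the consensus of NF-κB, a factor that LPS activates, and to GAGGAA, the core bound by the myeloid factor PU.1.
Src, chr2:157424043-157424342, plus strand: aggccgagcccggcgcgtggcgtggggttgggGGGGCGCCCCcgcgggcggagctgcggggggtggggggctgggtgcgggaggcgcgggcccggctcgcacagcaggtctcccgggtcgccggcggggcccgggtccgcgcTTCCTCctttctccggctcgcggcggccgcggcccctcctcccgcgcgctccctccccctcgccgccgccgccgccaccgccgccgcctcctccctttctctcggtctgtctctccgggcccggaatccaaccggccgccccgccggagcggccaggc
Fgr, chr4:132973845-132974144, plus strand: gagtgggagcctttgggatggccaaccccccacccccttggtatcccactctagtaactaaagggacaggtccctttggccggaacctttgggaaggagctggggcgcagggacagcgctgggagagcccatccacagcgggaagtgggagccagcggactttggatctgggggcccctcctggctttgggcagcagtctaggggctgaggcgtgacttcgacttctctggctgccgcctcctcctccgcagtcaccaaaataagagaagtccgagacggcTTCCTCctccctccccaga
Yes1, chr5:32610921-32611220, plus strand: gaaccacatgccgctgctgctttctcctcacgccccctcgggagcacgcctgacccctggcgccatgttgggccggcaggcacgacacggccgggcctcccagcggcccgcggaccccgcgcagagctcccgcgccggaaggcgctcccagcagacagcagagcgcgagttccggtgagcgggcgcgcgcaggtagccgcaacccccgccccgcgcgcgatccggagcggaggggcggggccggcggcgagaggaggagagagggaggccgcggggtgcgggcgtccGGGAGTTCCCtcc
The Src window lies inside the longer gene model of GENCODE, downstream of its first start, so it is 1 of the starts of the gene. It held an NF-κB match beginning at -218 and a PU.1 core beginning at -108. The Fgr window held a PU.1 core at 32 bases into the transcript, and the Yes1 window an NF-κB match at base 38 of the transcript.

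RefSeq windows were found for 7 of the 8 genes, with 9 windows in all, since Csk and Syk have 2 each. Lyn has no entry in that table. The NF-κB consensus was in 2 of the 9 windows, against 8.46% of all 32851 promoter windows, and GAGGAA in 6 of the 9, against 28.3%. No window of the members held TGANTCA (AP-1), the ISRE motif, TGACGTCA (CRE) or TATAAA, which were in 7.81%, 3.44%, 1.79% and 13.6% of all windows, and none of the motifs searched overlapped another. Windows of the 3 genes printed had a GC content of 82.3% (Src), 62.7% (Fgr) and 77.0% (Yes1), against a median of 52.7% over all windows. A match describes letters in a window and not binding.

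Over the whole table, genes were on balance lower in LPS vs NC, with a median log2 change of -0.17, and in C498+LPS vs C498, with -0.18. In LPS vs NC, 3 of the 8 members passed as higher (Src, Lyn and Syk) against 9.84% of all tested genes. As lower 2 passed (Fgr and Csk) against 19.8%, a count near that share. Only Src was a DEG, where 5.55% of genes were DEGs upward and 6.68% downward. The median change of the members was 0.07.

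Syk, the kinase that docks on phosphorylated ITAMs, was at 160.6 and 113.7 TPM in NC, 272 and 236 TPM in LPS, 134 and 137 TPM in C498, and 173 and 119.6 TPM in C498+LPS. The LPS samples lay above all others, and the other 3 groups overlapped each other. LPS vs NC gave a log2 change of 0.90 (SE 0.21, limma adjusted p = 0.0177), or 1.07 relative to the median gene, while C498+LPS vs C498 gave 0.09 with a 95% interval from -0.41 to 0.59. The interaction was -0.82 (unadjusted p = 0.0287, limma adjusted p = 0.39), so a difference between the LPS responses did not pass. The call in LPS vs NC was lost without LPS replicate 1 (log2 change 0.80, adjusted p = 0.114), without LPS replicate 2 (1.01, adjusted p = 0.0654) and without NC replicate 2 (0.66, adjusted p = 0.0729).

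Lyn, a Src-family kinase that acts through both ITAM and ITIM receptors, was likewise highest in LPS. It was at 76.2 and 57.6 TPM in NC, 96.3 and 91.6 TPM in LPS, 57.1 and 53.8 TPM in C498, and 64.6 and 53.0 TPM in C498+LPS. The LPS samples were above all others. The log2 change in LPS vs NC was 0.50 (SE 0.16, limma adjusted p = 0.0499), or 0.67 relative to the median gene, and in C498+LPS vs C498 it was 0.08 with a 95% interval from -0.29 to 0.44. The first call stood at the threshold and was lost on leaving out any sample other than NC replicate 1, with a log2 change as low as 0.30 without NC replicate 2 and adjusted p from 0.0599 to 0.199.

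**Figure D2:**
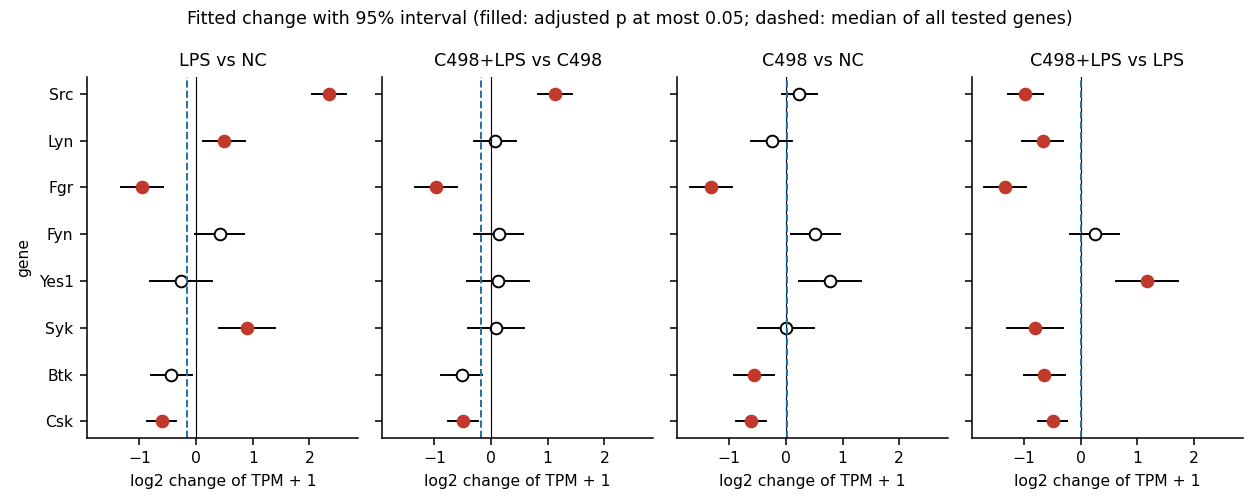
Fitted log2 change of TPM + 1 with its 95% interval for the 8 members in 4 comparisons of 2 against 2 samples (filled points passed at an adjusted p of at most 0.05, the dashed line is the median of all tested genes). Src stands apart at 2.34 in LPS vs NC. All genes but Fyn and Yes1 lie to the left of 0 in C498+LPS vs LPS.

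Fgr, a Src-family kinase found mainly in myeloid cells, moved opposite to Src under LPS and fell with each treatment. It was at 40.7 and 37.5 TPM in NC, 20.8 and 18.5 TPM in LPS, 15.1 and 14.9 TPM in C498, and 8.21 and 6.21 TPM in C498+LPS. The 4 groups did not overlap, and the combined treatment had the lowest samples. The log2 change was -0.96 in LPS vs NC (SE 0.16, limma adjusted p = 0.00427) and -0.97 in C498+LPS vs C498 (limma adjusted p = 0.00835). It was -1.32 in C498 vs NC (limma adjusted p = 0.00262) and -1.34 in C498+LPS vs LPS (limma adjusted p = 0.00215), in which Fgr was a DEG. The interaction was -0.02 with a 95% interval from -0.53 to 0.50. Of the 4 calls 3 held on leaving out any sample, and that in C498+LPS vs C498 was lost without C498 replicate 1 (log2 change -0.96, adjusted p = 0.0755) or C498 replicate 2 (-0.98, adjusted p = 0.0719).

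Fgr is also high in neutrophils, and 7 neutrophil markers were summed for that reason. They came to 82.3 and 134.7 TPM in NC, 97.3 and 123 TPM in LPS, 55.8 and 52.6 TPM in C498, and 81.6 and 72.2 TPM in C498+LPS, most of it S100a8. Of the markers, Ngp was listed at 0 in all samples, Ly6g in 7 of 8, and Mpo did not exceed 0.05 TPM. S100a9 was at 0 in the NC and LPS samples and did not exceed 0.86 TPM in the others. The granule gene Camp was present, at 0.29 and 2.46 TPM in NC, 2.95 and 3.30 TPM in LPS, 0.61 and 0.39 TPM in C498, and 0.81 and 0.21 TPM in C498+LPS. Its log2 change was 0.96 in LPS vs NC (limma adjusted p = 0.165) and -1.48 in C498+LPS vs LPS (limma adjusted p = 0.0736). Camp met the minimum mean level only through the LPS samples, so these 2 changes are a description. Retnlg, at 6.03 and 3.93 TPM in NC and 1.19 and 0.62 TPM in C498, changed by -1.64 in C498 vs NC (limma adjusted p = 0.00975) and by -0.16 in LPS vs NC (limma adjusted p = 0.703). Of the 3 neutrophil markers tested, 2 passed as lower in C498 vs NC, against 6.19% of all tested genes. In C498+LPS vs LPS 1 passed as lower, against 7.7%. None passed as lower in LPS vs NC, against 19.8% (none at an unadjusted p under 0.05 by limma). Their part in the changes of Fgr was not tested.

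Csk, the kinase that shuts Src-family kinases, was at 96.7 and 87.4 TPM in NC, 62.9 and 57.2 TPM in LPS, 57.1 and 62.5 TPM in C498, and 44.2 and 40.2 TPM in C498+LPS. NC was highest, C498+LPS lowest, and LPS and C498 overlapped. All 4 comparisons passed as lower, with a log2 change of -0.61 in LPS vs NC (SE 0.11, limma adjusted p = 0.00688), -0.61 in C498 vs NC (limma adjusted p = 0.0134), -0.50 in C498+LPS vs LPS (limma adjusted p = 0.0238) and -0.49 in C498+LPS vs C498 (limma adjusted p = 0.0263). Relative to the median gene the changes by LPS were -0.44 and -0.32. With each sample centred on its median gene the last was -0.28 and did not pass (adjusted p = 0.145).

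Leaving out 1 sample ended the call of Csk in LPS vs NC in 1 of 8 cases (LPS replicate 2, adjusted p = 0.0539) and in C498 vs NC in 2 of 8 (C498 replicate 1 with 0.104 and C498 replicate 2 with 0.0636). In C498+LPS vs LPS it was lost in 4 of 8 cases, which left out a sample of the compared groups (adjusted p 0.0528 to 0.142). In C498+LPS vs C498 it was lost in 6 of 8, all but those of NC (adjusted p 0.0521 to 0.161).

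Btk, a Tec-family kinase best known from B cell receptor signaling, was at 40.7 and 30.3 TPM in NC, 24.7 and 26.8 TPM in LPS, 23.3 and 23.6 TPM in C498, and 15.9 and 16.4 TPM in C498+LPS. The groups did not overlap and ran from NC through LPS and C498 down to C498+LPS, in the same order as for Fgr. The log2 change of -0.44 in LPS vs NC missed the threshold (limma adjusted p = 0.0713). It was -0.64 without NC replicate 2, where it passed (adjusted p = 0.0114), -0.23 without NC replicate 1 (adjusted p = 0.165) and -0.27 with centring (adjusted p = 0.139). That in C498+LPS vs C498 was -0.51 (limma adjusted p = 0.0627). It passed without NC replicate 1 or 2 (adjusted p = 0.0155 and 0.0154) and in a fit of only these groups (0.0371), and was -0.30 with centring (adjusted p = 0.145). Of 5 B cell markers 3 were tested. By limma none of them passed in LPS vs NC or C498+LPS vs C498 (none at an unadjusted p under 0.05 either). Of all tested genes 9.84% and 4.51% passed as higher there, and 19.8% and 11.7% as lower. None of the 3 passed in C498 vs NC (1 higher at an unadjusted p under 0.05), against 9.29% higher and 6.19% lower. In C498+LPS vs LPS 1 of the 3 passed as higher, against 9.08%. The summed level of the 5 was 17.8 and 24.5 TPM in NC and 41.2 and 118.9 TPM in C498+LPS, of which Ighm made up 106 TPM in the second C498+LPS sample. Their part in the values of Btk was not tested.

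In C498 vs NC, 3 of the 8 members passed as lower (Fgr, Btk and Csk) against 6.19% of all tested genes, and none as higher against 9.29%, with 2 of the members, Fyn and Yes1, higher at an unadjusted p under 0.05 from limma. Fgr was the only DEG, where 1.36% of genes were DEGs downward and 5.64% upward. Btk changed by -0.56 (SE 0.15, limma adjusted p = 0.049). That call was lost on leaving out any sample other than NC replicate 2, with adjusted p from 0.0616 to 0.21 and a change of -0.36 without NC replicate 1. Syk was level between both groups, with a change of 0.002 and a 95% interval from -0.50 to 0.50, and Lyn changed by -0.25 (95% interval -0.62 to 0.12).

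Under LPS with and without C498 (C498+LPS vs LPS), 6 of the 8 members passed as lower against 7.7% of all tested genes. The 6 were Src, Lyn, Fgr, Syk, Btk and Csk, of which Fgr was a DEG where 2.18% of genes were DEGs downward. Of all tested genes 9.08% passed as higher and 5.39% were DEGs upward. Yes1 was the 1 member among them, but it had entered the test only through its level with C498, so nothing is read from its call beside these shares. The median change of the members was -0.66 and that of all genes 0.007. Syk fell by 0.81 on the log2 scale (SE 0.21, limma adjusted p = 0.0397), Lyn by 0.67 (SE 0.16, limma adjusted p = 0.0272) and Btk by 0.64 (limma adjusted p = 0.0298). The members were chosen with results of these data known, so these counts are a description.

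Of the 6 falls, those of Src and Fgr held on leaving out any sample, with log2 changes from -1.13 to -0.82 and from -1.52 to -1.16. Those of Syk and Lyn were each lost without C498+LPS replicate 2, LPS replicate 1, LPS replicate 2, C498 replicate 1 or C498 replicate 2, with adjusted p from 0.0888 to 0.217 and from 0.0635 to 0.167. Without C498+LPS replicate 2 the change of Syk was -0.55 and that of Lyn -0.53. That of Btk was lost without any 1 of the 6 samples other than NC (adjusted p 0.0697 to 0.167), with a change between -0.70 and -0.59. Without a filter on low values 3 members passed as lower, as many as without a variance trend.

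Yes1, a Src-family kinase expressed in most tissues, was the lowest of the 8 transcripts. It was at 0.72 and 0.56 TPM in NC, 0.39 and 0.33 TPM in LPS, 1.79 and 1.82 TPM in C498, and 1.85 and 2.27 TPM in C498+LPS. All samples with C498 lay above all without it. C498+LPS vs LPS gave a log2 change of 1.17 (SE 0.23, limma adjusted p = 0.0157), which was 2.23 with a pseudocount of 0.1 TPM. Because the filter admitted Yes1 through this same difference, the value is a description, and without a filter its adjusted p was 0.0192. C498 vs NC gave 0.78 (limma adjusted p = 0.0647), which was 1.37 with that pseudocount and 0.47 with quantile normalization (adjusted p = 0.17). The first call was lost without C498+LPS replicate 2 (log2 change 1.07, adjusted p = 0.06), LPS replicate 1 (1.20, adjusted p = 0.0642) or LPS replicate 2 (1.14, adjusted p = 0.0734), and the second was gained without NC replicate 1 (0.85, adjusted p = 0.0394).

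Fibroblast markers moved with Yes1. All 5 of them (Col1a1, Col1a2, Col3a1, Dcn and Pdgfra) passed as higher in C498 vs NC, against 9.29% of all tested genes, with a median log2 change of 2.00. In C498+LPS vs LPS 4 of the 5 passed as higher, against 9.08%, with a median of 2.00. In LPS vs NC, where 9.84% of genes passed as higher and 19.8% as lower, none of the 5 passed, nor did Yes1. Their sum was 192 and 150.2 TPM in NC, 200.5 and 176 TPM in LPS, 633 and 750.0 TPM in C498, and 618 and 911 TPM in C498+LPS, so that the C498+LPS sample with the higher Yes1 level also had the higher sum. The 4 mesothelial markers summed to at most 1.83 TPM without C498 and to between 5.53 and 10.7 TPM with it. Their part in the change of Yes1 was not tested.

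Fyn, another widely expressed member, was at 11.4 and 7.95 TPM in NC, 13.7 and 12.4 TPM in LPS, 14.5 and 13.7 TPM in C498, and 14.6 and 16.7 TPM in C498+LPS. It passed in none of the comparisons. The log2 change was 0.41 in LPS vs NC (limma adjusted p = 0.135), and it passed at 0.58 with centring (adjusted p = 0.0149) and with quantile normalization (adjusted p = 0.0143). C498 vs NC gave 0.52 (limma adjusted p = 0.101) and C498+LPS vs LPS 0.25 with a 95% interval from -0.19 to 0.68. Without NC replicate 1, the higher of its group, the changes in LPS vs NC and C498 vs NC were 0.65 (adjusted p = 0.0255) and 0.75 (adjusted p = 0.0211), and without NC replicate 2 they were 0.18 (adjusted p = 0.382) and 0.29 (adjusted p = 0.249). T cells also use Fyn, and the 6 T cell markers summed to between 0.92 and 5.36 TPM over the samples, with the highest sum in the second C498+LPS sample. Within LPS and C498 the sample with the higher T cell sum also had more Fyn, and within NC it had less. The 5 fibroblast markers summed to between 150.2 and 200.5 TPM without C498 and between 618 and 911 TPM with it. The second C498+LPS sample was the highest both in this sum and in Fyn. Within NC and LPS the sample with the higher fibroblast sum also had more Fyn, and within C498 it had less. The part of either cell type in the values of Fyn was not tested.

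**Figure D3:**
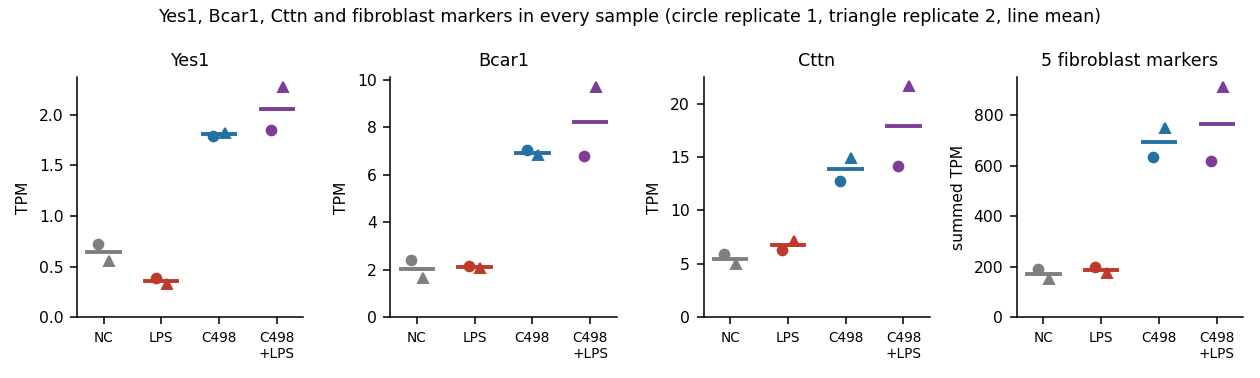
TPM of Yes1, Bcar1 and Cttn and summed TPM of 5 fibroblast markers in each sample (circles replicate 1, triangles replicate 2, lines the mean of 2 samples, axes from 0). In all 4 panels every sample with C498 lies above every sample without it, and the second C498+LPS sample is the highest.

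Of the 8 members 1 passed as higher in C498+LPS vs C498, Src, against 4.51% of all tested genes, and 2 as lower, Fgr and Csk, against 11.7%. Src was a DEG upward, as were 2.52% of genes, and no member was a DEG downward, where 3.13% were. Without C498+LPS replicate 1, the sample with the higher Src level, its change was 0.97 and still passed (adjusted p = 0.0163) but was below 2-fold. No member passed in the interaction by limma, in which 0.418% of genes passed with a negative and 0.0738% with a positive interaction, and 2 members, Src and Syk, had an unadjusted p under 0.05. The median interaction of the members was -0.18 and that of all genes -0.03.

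The makeup of the family was also taken within each sample, where scaling cancels. Src made up 16.2% and 17.8% of the summed TPM of Src, Lyn, Fgr, Fyn and Yes1 in NC, 49.4% and 49.4% in LPS, 24.0% and 25.0% in C498, and 43.9% and 41.7% in C498+LPS. Lyn held the largest share in NC with 47.6% ± 2.7 (SD, n = 2), and its share in LPS was 37.4% ± 0.404. The share of Fgr went from 28.1% ± 2.32 in NC to 7.83% ± 0.285 in LPS, 13.1% ± 0.199 in C498 and 4.90% ± 0.377 in C498+LPS. The summed level itself was 139.8 ± 19.7 TPM in NC, 251 ± 11.6 TPM in LPS, 114 ± 2.98 TPM in C498 and 146 ± 17.6 TPM in C498+LPS. Csk, set against that sum, came to 66.1% ± 4.61 of it in NC, 23.9% ± 0.484 in LPS, 52.3% ± 4.76 in C498 and 28.9% ± 1.57 in C498+LPS. These shares were not fitted by limma and are a description. With 2 samples against 2 the exact two-sided permutation test cannot give less than p = 0.333.

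**Figure D4:**
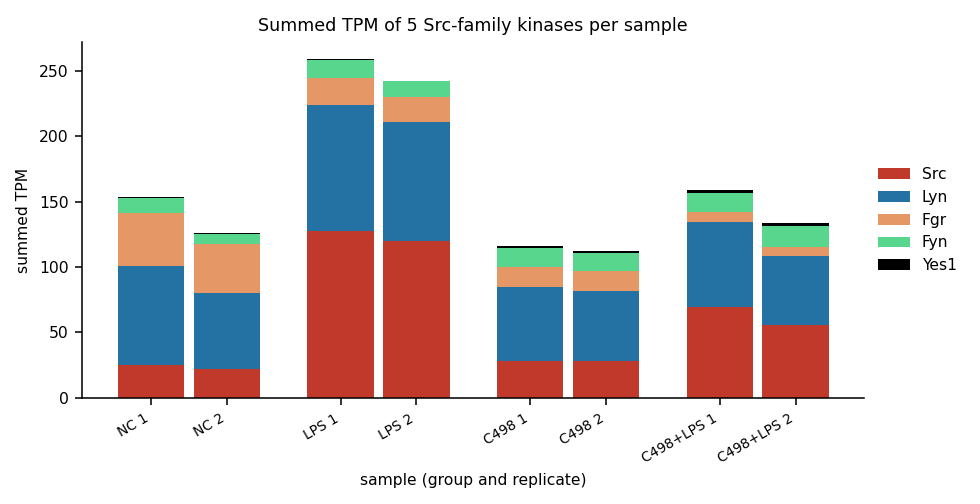
Summed TPM of the 5 Src-family kinases among the members in each sample, stacked by gene, with the axis from 0. The LPS samples reach 259 and 243 TPM, the NC samples 153.8 and 125.9 TPM, the C498 samples 116 and 112 TPM, and the C498+LPS samples 158.9 and 134.0 TPM, with Src the part that differs most between C498 and C498+LPS.

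The other kinases related to the 8 were mostly silent, with 3 of 11 at a mean of at least 1 TPM: Lck, Tec and Matk. In LPS vs NC 2 of the 3 passed as lower by limma (19.8% of all tested genes) and none as higher (9.84%), with 1, Lck, higher at an unadjusted p under 0.05. Tec, a relative of Btk, went from 32.4 and 29.8 TPM in NC to 5.86 and 5.03 TPM in LPS (log2 change -2.32, limma adjusted p = 4.76e-05). With C498+LPS it was at 14.8 and 13.2 TPM, 1.22 above LPS on the log2 scale (limma adjusted p = 0.00191). Matk, a relative of Csk, changed by -1.49 in LPS vs NC (limma adjusted p = 0.00187), from 11.9 ± 0.148 to 3.62 ± 0.771 TPM (SD, n = 2).

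Among 16 regulators of Src-family activity, all tested, 2 passed as higher and 6 as lower in LPS vs NC, against 9.84% and 19.8% of all tested genes. The counts were 1 and 5 in C498 vs NC, against 9.29% and 6.19%, and 1 and 6 in C498+LPS vs LPS, against 9.08% and 7.7%, with a median change of -0.51 against 0.007 over all genes. Ptprj, a receptor phosphatase that can open Src-family kinases, rose from 37.1 ± 17.8 to 107 ± 20.1 TPM with LPS (log2 change 1.57, limma adjusted p = 0.0119). Inpp5d, the lipid phosphatase SHIP1, went from 52.6 ± 7.12 to 8.83 ± 1.51 TPM (log2 change -2.45, limma adjusted p = 0.000114), and Ptpn22, a phosphatase that works with Csk, from 9.46 and 4.71 TPM to 0.65 and 0.82 TPM (log2 change -2.16, limma adjusted p = 0.0026). Ptpn22 was higher again in C498+LPS, at 3.37 and 4.56 TPM (log2 change 1.51 vs LPS, limma adjusted p = 0.0175). The adaptor Dok2 passed as lower in all 4 comparisons, with changes of -1.53 in LPS vs NC, -1.41 in C498 vs NC and -1.12 in C498+LPS vs LPS. Ptpn6, the phosphatase SHP-1 that ITIM receptors recruit, was at 225 and 219.6 TPM in LPS and 94.6 and 87.8 TPM in C498+LPS (log2 change -1.28, limma adjusted p = 0.00043), and Dok3 changed by -1.17.

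Of 14 ITAM receptors and adaptors 12 were tested. Of these, LPS vs NC had 2 higher and 5 lower (9.84% and 19.8% of all tested genes) and C498 vs NC 1 higher and 4 lower (9.29% and 6.19%). C498+LPS vs LPS had none higher and 8 lower (9.08% and 7.7%), with none higher at an unadjusted p under 0.05 by limma. The 8 include Trem3, which had entered the test only through its level in LPS, so nothing is read from its call beside these shares. Clec4e, the receptor Mincle, rose from 678 ± 79.6 to 2982 ± 19 TPM with LPS (log2 change 2.14, limma adjusted p = 8.12e-05) and the Fc receptor Fcgr3 went from 495 ± 20 to 222 ± 10.3 TPM (log2 change -1.15). Clec4n, the receptor Dectin-2, was at 50.4 and 62.6 TPM in LPS and 28.3 and 24.7 TPM in C498+LPS (log2 change -1.06, limma adjusted p = 0.00319). Sirpb1a changed by -1.08 in C498 vs NC and by -1.07 in C498+LPS vs LPS, and Trem3 by -1.56 in the latter, at a level of no more than 2.56 TPM. With a mean of 1.10 TPM, Trem3 met the minimum level only through the LPS samples (2.56 and 2.51 TPM), so its change is a description. Fcer1g, the shared Fc receptor chain, changed by -0.45 in C498+LPS vs LPS (limma adjusted p = 0.0224).

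Of 11 ITIM receptors 10 were tested, and their median change in C498+LPS vs LPS was -0.83, with 6 passing as lower, against 7.7% of all tested genes, and none as higher, against 9.08% (none at an unadjusted p under 0.05 by limma either). In LPS vs NC 3 passed as higher and 3 as lower, against 9.84% and 19.8%, and in C498 vs NC none and 4, against 9.29% and 6.19%, with none higher at an unadjusted p under 0.05. Siglece, a sialic acid receptor, was at 29.6 and 27.2 TPM in LPS and 3.35 and 2.30 TPM in C498+LPS (log2 change -2.95, limma adjusted p = 0.000461). It was at 15.6 and 14.8 TPM in NC and 2.90 and 3.99 TPM in C498 (log2 change -1.87, limma adjusted p = 0.00168). Pilra changed by -1.47 in C498 vs NC and by -1.94 in C498+LPS vs LPS, and the inhibitory Fc receptor Fcgr2b by -1.30 in the latter. Cd300lf and Lair1 were lower in LPS vs NC, by -1.72 and -1.35.

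**Figure D5:**
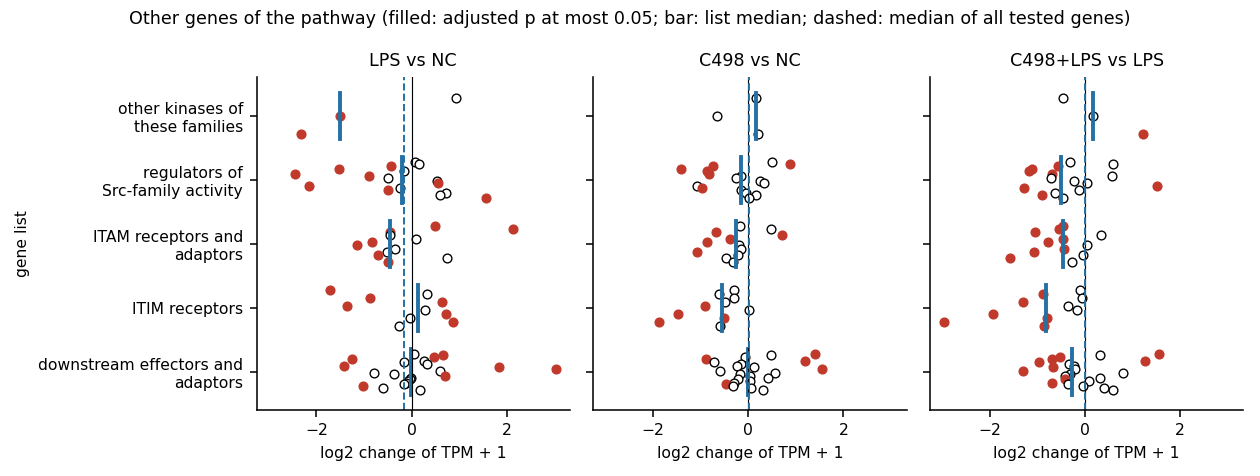
Log2 change of TPM + 1 of each tested gene in 5 lists in 3 comparisons of 2 against 2 samples (filled points passed at an adjusted p of at most 0.05, short bars are list medians, the dashed line is the median of all tested genes). In C498+LPS vs LPS the ITIM receptors have the lowest list median, -0.83, and the filled points to the right of 0 are few.

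All 22 downstream effectors and adaptors were tested. In LPS vs NC 5 passed as higher and 3 as lower, against 9.84% and 19.8% of all tested genes. The counts were 3 and 2 in C498 vs NC, against 9.29% and 6.19%, and 2 and 7 in C498+LPS vs LPS, against 9.08% and 7.7%. The 3 lower in LPS vs NC, the 2 lower in C498 vs NC and the 2 higher in C498+LPS vs LPS were near or below these shares. Malt1, the protease of the Card9 complex, rose from 29.2 ± 16.5 to 228 ± 41.7 TPM with LPS (log2 change 3.03, limma adjusted p = 0.00135) and to 80.6 ± 7.88 TPM with C498 alone (log2 change 1.55, limma adjusted p = 0.0324). Lcp2, the adaptor SLP-76, rose by 1.84 with LPS (limma adjusted p = 0.000198) and was 0.66 lower on the log2 scale in C498+LPS vs LPS (limma adjusted p = 0.0244). Card9 (-1.25), Vav1 (-1.01) and the adaptor Lat2 (-1.42) were lower in LPS vs NC. Pik3ap1, an adaptor for PI3-kinase, changed by -1.31 in C498+LPS vs LPS (limma adjusted p = 0.009).

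The 2 effectors that passed as higher in C498+LPS vs LPS were Bcar1 and Cttn, both substrates of Src-family kinases at the cytoskeleton. Bcar1 was at 2.16 and 2.07 TPM in LPS and 6.78 and 9.69 TPM in C498+LPS (log2 change 1.55, limma adjusted p = 0.00505), and Cttn at 6.33 and 7.17 TPM and 14.2 and 21.6 TPM (log2 change 1.26, limma adjusted p = 0.0102). C498 vs NC gave 1.40 and 1.20. Both moved with the fibroblast markers as Yes1 did, whose part in their change was not tested.

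For each member the tested genes with the most similar pattern were found by Pearson's r of log2(TPM + 1) over the 8 samples, which share the 4 treatments. For Src they were Whamm (r = 0.996), Foxp4 (0.996), Gm7818 (0.995), Ifi47 (0.994) and C130026I21Rik (0.994). For Fgr they were Sephs2 (0.995), Il10rb (0.992), Clec4a3 (0.992), Particl (0.992) and Zbtb7b (0.992). For Yes1 they were Vldlr (0.995), Nectin1 (0.992), Lhfp (0.991), Mrc2 (0.990) and Angptl2 (0.990).

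Lyn (ENSMUSG00000042228) lies on chromosome 4 from 3678115 to 3813122 and Fyn (ENSMUSG00000019843) on chromosome 10 from 39368855 to 39565381, both on the plus strand. Syk (ENSMUSG00000021457) lies on chromosome 13 from 52583173 to 52648792 on the plus strand, Btk (ENSMUSG00000031264) on chromosome X from 134542336 to 134583570 and Csk (ENSMUSG00000032312) on chromosome 9 from 57626646 to 57653631, both on the minus strand. Lyn, Fyn, Yes1 and Btk overlap smaller annotated genes, nearly all on the opposite strand. Those listed in the table did not exceed 1.97 TPM in any sample, which was Gm15154 within Btk. Each of those listed has its own value, but whether reads were counted by strand, and how reads in the shared part were assigned, is not stated, so these values and those of the host genes are uncertain to that extent. The overlapping gene of Yes1 on the same strand, Gm43694, reached 0.58 TPM.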

How the data were processed

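RNA of mouse peritoneal macrophages was sequenced in 4 groups of 2 samples on an Illumina NovaSeq. Per the labels and the methods, the authors used fastp, HISAT2, StringTie and RSEM, in this order, for trimming, alignment, assembly and quantification. They deposited TPM per gene and sample, and group means that were not used. Versions, genome build and annotation are not given in the sources used here. All samples have the same sum of TPM, so depth is unknown and the count test of the authors, DESeq2, was not repeated. Groups were taken from the sample titles, and the columns called NC were matched to the vehicle samples.

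On the scale of log2(TPM + 1), limma 3.58.1 in R 4.3.3 was fitted to 12189 genes (mean of at least 1 TPM), with 1 mean per group and a variance trend over all 8 samples. Thresholds were those of the study, a 2-fold change and an adjusted p of at most 0.05 (Benjamini-Hochberg). Other steps used pandas 2.3.3, numpy 2.4.6 and matplotlib 3.10.9. Positions were taken from GENCODE M21 (GRCm38), where 97.5% of tested identifiers were found, and promoter sequences are from RefSeq on GRCm38.p6. The fit was tested on simulated data.

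Text names all 8 members and of 5 pathway lists (11 related kinases, 16 regulators, 14 ITAM and 11 ITIM receptors, 22 effectors) the DEGs in LPS vs NC, C498 vs NC or C498+LPS vs LPS, at most 3 per list, comparison and direction, besides markers and the 5 genes most like Src, Fgr and Yes1. Fcer1g and Lcp2 in other comparisons were added after their values were seen. A further gene of the kinase list and a further B cell marker are not reported here. Members, lists and motifs were chosen with earlier results of these data known. Alternatives were a pseudocount of 0.1 TPM, no filter, a mean of at least 5 TPM, centring on the median gene, quantile normalization, fits restricted to the compared groups, constant prior variance, the replicate number as a block, no fold threshold, and leaving out each sample in turn.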

Additional observations from a re-analysis of the deposited data

How the results depend on the processing

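Over the alternatives, 627 values of the members were recomputed, of which 531 kept direction and side of the threshold, 70 lost and 14 gained a call, and 12 changed sign. All sign changes were in values that had not passed: the interaction of Fgr (-0.02) became 0.030 with centring and 0.043 with quantile normalization, and C498 vs NC of Syk (0.002) became -0.12 and -0.014. On leaving out samples these 2 ranged from -0.19 to 0.16 and from -0.25 to 0.25, the interaction of Btk from -0.29 to 0.13, and C498+LPS vs C498 from -0.066 to 0.22 for Lyn and from -0.18 to 0.35 for Syk.

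In LPS vs NC, the 3 members higher became 1 in a fit of only these groups and 1 without a filter, and 1 to 4 on leaving out samples, and the 2 lower became 1 to 3. DEGs upward were 1, and 2 with centring, 3 without a fold threshold and 1 to 2 on leaving out samples. DEGs downward were 0, then 2 and 0 to 1. In C498 vs NC, 0 higher became 1 without a variance trend and 0 to 2 on leaving out samples. The 3 lower became 1 with only these groups and 1 to 3, and the DEG downward became 3 without a fold threshold. The 6 lower in C498+LPS vs LPS became 3 without a filter, 3 without a trend and 2 to 6 on leaving out samples. The 1 higher, Yes1, became 0 at a mean of at least 5 TPM, as it was no longer tested, and 0 to 1 on leaving out samples, and so did the DEG upward. The DEG downward became 2 with centring, 6 without a fold threshold and 1 to 3. The 2 lower in C498+LPS vs C498 became 1 with centring, 1 without a trend and 0 to 3, DEGs downward went from 0 to 1 with a pseudocount of 0.1 TPM, 2 without a fold threshold and 0 to 1, and the DEG upward to 0 to 1.

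In the interaction, 1 member, Src, passed and was a DEG at a mean of at least 5 TPM (adjusted p = 0.0372), with a pseudocount of 0.1 TPM (0.0469), with quantile normalization (0.0454) and with the replicate block (0.0233). The block lost none of the other calls. The interaction needs all 4 groups, so no fit of fewer groups was made for it. Replicate numbers were not taken to pair the samples, since the labels name nothing they share and the deviations of equal numbers correlated between 0.040 and 0.168 over the 6 pairs of groups. Depth is unknown in TPM, so counting noise at the level of Yes1 could not be given. Where a value moved, the cause was not tested.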
